A study of Mus musculus with 12 samples.

Results

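Glutathione S-transferases were followed through 12 liver RNA libraries of mice in which the enzyme gene Lpcat3 was floxed and the diet was varied. The genes described are the 10 rows named Gsta1, Gsta2, Gsta3, Gsta4, Gstm1, Gstm2, Gstm3, Gstp1, Gstt1 and Gstt2, out of 55401 genes in the deposited tables. All 10 passed the filter on low counts and were tested among 16523 genes. The groups held 3 libraries each. They were LPCAT3flox/flox-cre mice on a methionine- and choline-deficient diet (MCD, here cre MCD), LPCAT3flox/flox mice on that diet (flox MCD), and the same genotypes on the control diet (cre control, flox control). The animals were C57BL/6 mice labelled male and 6 to 8 weeks of age, the MCD diet lasted 8 weeks, and all mice were fasted for 12 h before the liver was taken. All 4 groups carry the floxed alleles, so no group has an unmodified Lpcat3 gene. The promoter that drives the cre is not given in the sources used here. The MCD diet is used to bring on steatohepatitis, and the series asks what Lpcat3, an acyltransferase that puts polyunsaturated chains into phospholipids, does in this model of fatty liver disease.

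Glutathione S-transferases join the tripeptide glutathione to electrophiles, among them drugs, lipid peroxidation products and reactive intermediates made by cytochromes P450. The liver holds them in large amounts. They are grouped by sequence into classes, of which alpha (Gsta), mu (Gstm), pi (Gstp) and theta (Gstt) are covered here. Several of their genes are known targets of the stress-responsive factor NRF2, which binds antioxidant response elements, and of the xenobiotic receptors CAR, PXR and AhR.

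The stretch around the start of transcription is shown for 3 genes that lay higher in every MCD than in every control library. These are Gsta1, Gsta2 and Gstp1, and the stretches of Gsta1 and Gsta2 are similar. That of Gsta3 is shown as well, which alone among those matched held the form of the antioxidant core that was searched. Each runs 5′ to 3′ from 250 bases before to 50 bases after the RefSeq start on GRCm38.p6. Capitals mark the matches to TGACNNNGC (the core of the antioxidant response element), TGANTCA (the AP-1 site) and GCGTG (the core of the xenobiotic response element that AhR binds), searched on both strands.
Gsta1, chr9:78230419-78230718, plus strand: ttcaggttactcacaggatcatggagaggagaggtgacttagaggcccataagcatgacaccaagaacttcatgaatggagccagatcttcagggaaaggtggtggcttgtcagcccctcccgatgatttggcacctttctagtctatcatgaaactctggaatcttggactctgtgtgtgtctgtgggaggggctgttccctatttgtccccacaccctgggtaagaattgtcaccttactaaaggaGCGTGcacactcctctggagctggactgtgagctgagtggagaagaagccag
Gsta2, chr9:78347096-78347395, minus strand: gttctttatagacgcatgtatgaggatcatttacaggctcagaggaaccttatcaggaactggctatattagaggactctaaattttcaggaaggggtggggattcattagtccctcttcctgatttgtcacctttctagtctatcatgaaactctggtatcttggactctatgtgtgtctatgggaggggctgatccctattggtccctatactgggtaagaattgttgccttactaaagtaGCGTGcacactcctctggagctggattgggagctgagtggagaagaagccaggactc
Gstp1, chr19:4037863-4038162, minus strand: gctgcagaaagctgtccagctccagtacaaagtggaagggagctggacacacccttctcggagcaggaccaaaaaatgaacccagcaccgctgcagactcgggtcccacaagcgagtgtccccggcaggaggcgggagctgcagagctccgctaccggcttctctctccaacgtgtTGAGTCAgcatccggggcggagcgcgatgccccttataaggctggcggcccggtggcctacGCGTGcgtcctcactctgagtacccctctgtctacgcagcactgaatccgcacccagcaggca
Gsta3, chr1:21240335-21240634, plus strand: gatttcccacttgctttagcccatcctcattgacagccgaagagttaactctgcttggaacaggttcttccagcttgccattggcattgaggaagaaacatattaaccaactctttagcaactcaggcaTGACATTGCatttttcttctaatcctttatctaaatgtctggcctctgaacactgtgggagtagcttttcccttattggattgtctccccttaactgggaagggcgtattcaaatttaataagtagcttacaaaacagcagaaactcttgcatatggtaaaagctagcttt

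RefSeq promoters were matched for 8 of the 10 genes, the exceptions being Gsta4 and Gstt2. The Gsta1 and Gsta2 promoters are similar, with 232 identical bases in an alignment of 311 positions (74.6%). For the other pairs of promoters aligned, the share was 38.4% to 57.1%. Both Gsta1 and Gsta2 carry GCGTG close to the start, at offsets of -2 and -7. GCGTG was also found in the promoters of Gstm1 and Gstp1, so 4 of 8 genes held it. GCGTG is held by 32.4% of all 32851 promoters. The AP-1 letters TGANTCA were found in 1 of the 8 genes, Gstp1, at offset -74, against 7.81% of all promoters. The antioxidant core TGACNNNGC was found in 1 of the 8, Gsta3, at offset -121, against 12.4% of all promoters. A match describes these letters alone, since the binding of factors was not measured. Other forms of these elements and bases outside the stretches were not searched, so a gene without a match may still hold such an element. The AP-1 match of Gstp1 is followed by gc. Read as TGAGTCAGC, it differs from the antioxidant core searched only in having G where that has C.

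Depth was 40883986 to 65516723 estimated counts a library, with 17631 to 19988 genes above 0. A ribosomal RNA row (CT010467.1) took 5.6% to 43.0% of a library's counts, which is why levels below are scaled between libraries by trimmed means (TMM) and given as normalised CPM (counts relative to library size). Lpcat3 was at 16.1 to 23.3 CPM in 5 of the 6 cre libraries and at 41.4 to 63.4 CPM in the 6 flox libraries. The sixth cre library held 56.1 CPM of Lpcat3 and had the full-length transcript at 23.2 FPKM, which was listed at 0 in the other 5. It goes against its label and is called the library labelled cre MCD 3 throughout. This library and flox control 3 also deviated together from their groups (r = 0.52 over genes). They had the smallest shares of counts in all ribosomal RNA rows, 7.42% and 9.26%, against 53.9% in flox control 1. They also held the least Xist, at 116 and 197 CPM. What this composition did to the values below was not tested. Several of the main values are also given with either library left out. All 12 libraries held Xist at 116 to 685 CPM and 0 counts of Kdm5d, Eif2s3y, Uty and Ddx3y on the Y chromosome, which goes against the label male. In mouse liver Gstp1 is known to be more abundant in males. Defining hepatocyte markers were present in every library, with a summed level of 89419 to 99010 CPM in cre MCD, 47737 to 68273 CPM in flox MCD, 67803 to 90245 CPM in cre control and 58614 to 105843 CPM in flox control. Adjusted p-values come from tests that set group differences against the spread between these libraries. The labels do not say whether each library is a separate animal.

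The MCD diet raised a block of glutathione transferases in both genotypes. In cre livers Gsta1, Gsta2, Gsta4, Gstm2, Gstm3 and Gstp1 rose, and in flox livers Gsta1, Gstm2, Gstm3 and Gstp1 rose. None fell in either genotype. These are 6 and 4 of 10 genes at an adjusted p under 0.05 in edgeR, where 3.73% of all genes were called higher and 3.04% lower in cre livers (6.77% either way). In flox livers 2.64% of all genes were called higher and 2.63% lower (5.27% either way). The median log2 fold change of the 10 genes was 1.70 in cre livers and 0.75 in flox livers, against -0.01 and 0.01 over all genes tested. The median in cre livers was 1.27 when the library labelled cre MCD 3 was left out, and that in flox livers was 0.96 when flox control 3 was. A 2-sided exact permutation of 3 against 3 libraries cannot give a p below 0.1, so tests rest on the model fitted to the whole table. In bulk liver a change in the number of cells of a type and a change in the RNA of each cell cannot be told apart.

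**Figure D1:**
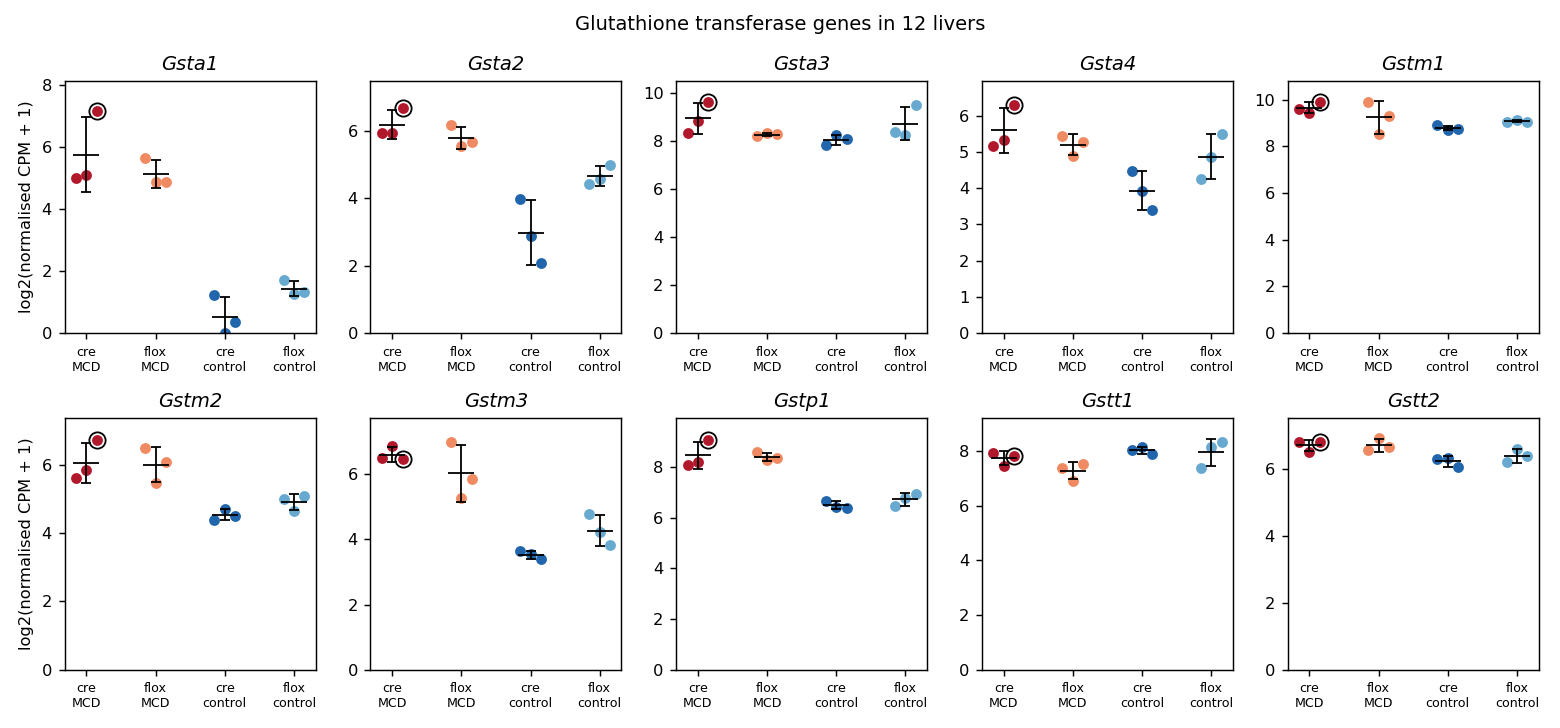
Levels of the 10 genes in each library, as log2 of normalised CPM plus 1 on the vertical axis, with a point per library and the mean and SD of each group of 3 as bars. The circled point is the library labelled cre MCD 3, which is the highest of the 12 for Gsta1, Gsta2, Gsta3, Gsta4, Gstm2 and Gstp1, and Gsta1 shows the widest gap between MCD and control livers.

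Among the alpha class, Gsta1 and Gsta2 encode the inducible subunits that act on organic hydroperoxides and steroids. Gsta1 (ENSMUSG00000074183, chromosome 9, 78230656 to 78242684, plus strand, GRCm38) had 31.2, 33.5 and 144 CPM in the cre MCD libraries 1, 2 and 3, against 1.35, 0 and 0.28 CPM in cre control 1, 2 and 3. Flox MCD libraries had 49.1, 28.2 and 28.3 CPM, against 2.25, 1.42 and 1.53 CPM in flox control. Every MCD library lay above every control library, and the highest control level was far below the lowest MCD level. The cre control values rest on 58, 0 and 11 estimated counts. A floor of 3 counts, which treats estimated counts as reads, stood at 0.0896 normalised CPM in the library at 0. The log2 fold change was 6.94 in cre livers (SE 0.92, adjusted p = 0.00091) and 4.35 in flox livers (SE 0.80, adjusted p = 0.0061). Without 1 library at a time the value in cre livers ran from 5.84 to 8.86, and the call held in each such fit.

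Gsta2 (ENSMUSG00000057933, chromosome 9, 78331018 to 78355788, minus strand) lies near Gsta1 on the other strand. It had 60.1, 59.6 and 102 CPM in cre MCD, against 14.7, 6.36 and 3.23 CPM in cre control. The flox MCD livers had 70.5, 46.0 and 49.0 CPM, against 20.2, 22.7 and 30.4 CPM in flox control. The 6 MCD libraries lay above all 6 control libraries. It rose in cre livers (log2 fold change 3.18, SE 0.45, adjusted p = 0.0014), while the value in flox livers was 1.17 and did not pass (SE 0.42, adjusted p = 0.13). With 1 library left out the cre value ran from 2.81, without cre control 3, to 3.95, without cre control 1. It was 2.88 without the library labelled cre MCD 3, and the cre call held in each such fit. In flox livers it passed in 4 alternatives (lowest adjusted p = 0.023) and did not in 22. Among the 4 were the 6 compared libraries fitted alone (adjusted p = 0.030) and the fit without cre control 1 (adjusted p = 0.046).

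The 2 genes cannot be read as fully separate. Of the 50-base words in the main Gsta1 transcript 89.7% also occur in transcripts of other genes, 82.9% in Gm3776 and 44.6% in Gsta2, so the authors' counting could move reads between these rows. For the main Gsta2 transcript the share was 64.2%. Gm3776 (chromosome 9, 78257129 to 78269166), a protein-coding row between Gsta1 and Gsta2, had 5.01, 9.55 and 42.8 CPM in cre MCD, against 0.21, 0 and 0 CPM in cre control. On MCD the flox livers had 10.9, 7.91 and 7.35 CPM, against 0.50, 0.50 and 0.48 CPM in flox control. It rose in cre livers (adjusted p = 0.00058) and in flox livers (adjusted p = 0.0067). Summed before the fit, Gsta1 and Gsta2 rose in cre livers (log2 fold change 4.05, adjusted p = 0.00096), and in flox livers the sum stood at 1.79 and missed the threshold (adjusted p = 0.052).

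Gsta3 and Gsta4 share no 50-base word with another gene, so their rows stand alone. Gsta3 (ENSMUSG00000025934, chromosome 1, 21240589 to 21265661, plus strand) encodes the mouse subunit that detoxifies aflatoxin epoxide and was the most abundant of the alpha class by FPKM. It had 324, 455 and 788 CPM in cre MCD, against 226, 299 and 270 CPM in cre control. In flox livers the MCD libraries had 290, 316 and 312 CPM, against 330, 306 and 719 CPM in flox control. The cre groups did not overlap and the flox groups did, with flox control 3 far above the others. No diet test passed, with a log2 fold change of 0.98 in cre livers (SE 0.35, adjusted p = 0.10) and -0.56 in flox livers (SE 0.35, adjusted p = 0.43). Without flox control 3 the flox value was -0.05, and that in cre livers passed (0.98, adjusted p = 0.034), as it did without cre MCD 1 (1.24, adjusted p = 0.035) and in DESeq2 (0.99, adjusted p = 0.037). On leaving out the library labelled cre MCD 3 the cre value was 0.56 (adjusted p = 0.40).

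Gsta4 (ENSMUSG00000032348, chromosome 9, 78182774 to 78209349, plus strand) encodes the subunit with a preference for 4-hydroxynonenal, an aldehyde of lipid peroxidation. It had 34.7, 39.7 and 77.9 CPM in cre MCD, against 21.2, 14.1 and 9.52 CPM in cre control. Its flox MCD levels were 42.9, 28.7 and 37.7 CPM, against 18.2, 28.0 and 44.1 CPM in flox control, and the flox groups overlapped. It rose in cre livers (log2 fold change 1.77, SE 0.39, adjusted p = 0.018) and was at 0.27 in flox livers (SE 0.37, adjusted p = 0.77). Without flox control 3 the flox value was 0.66 (adjusted p = 0.34). The call in cre livers was lost on leaving out cre control 2 (1.73, adjusted p = 0.068), cre control 3 (1.53, adjusted p = 0.063) or the library labelled cre MCD 3 (1.32, adjusted p = 0.071). It held when flox control 3 was left out as well as that library (1.32, adjusted p = 0.027).

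The mu class lies side by side on chromosome 3. Gstm1 (ENSMUSG00000058135, 108012255 to 108017973, minus strand), the main mu transferase of mouse liver, had 782, 690 and 956 CPM in cre MCD, against 479, 420 and 426 CPM in cre control. Flox MCD libraries had 958, 368 and 626 CPM, against 529, 556 and 528 CPM in flox control. The cre groups did not overlap, while the flox MCD libraries lay on either side of a tight flox control group. The log2 fold change was 0.87 in cre livers (SE 0.28, adjusted p = 0.078) and 0.28 in flox livers (SE 0.28, adjusted p = 0.69). The value in cre livers passed in several alternatives, among them DESeq2 (adjusted p = 0.020), the 6 compared libraries fitted alone (adjusted p = 0.032), the filtered FPKM fits (adjusted p = 0.048 in each) and the fit without flox MCD 2 (adjusted p = 0.040). In flox livers the value turned to -0.11 without flox MCD 1.

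Gstm2 (ENSMUSG00000040562, 107981702 to 107986453, minus strand), a less abundant mu subunit, had 47.9, 56.6 and 105 CPM in cre MCD, against 20.0, 25.2 and 21.8 CPM in cre control. The flox MCD livers had 89.5, 43.0 and 66.5 CPM, against 31.4, 24.0 and 32.9 CPM in flox control. The 6 MCD libraries lay above all 6 control libraries. It rose in cre livers (log2 fold change 1.64, SE 0.31, adjusted p = 0.0085) and in flox livers (1.17, SE 0.31, adjusted p = 0.042). The cre value was 1.23 without the library labelled cre MCD 3, still called (adjusted p = 0.028). The flox call sat close to the threshold and was lost in 9 of the 12 fits that left out 1 library, with values of 0.90 to 1.27 and adjusted p of up to 0.19. It was also lost with the 6 compared libraries fitted alone (adjusted p = 0.056). It held without flox MCD 2, without cre MCD 1 and without the library labelled cre MCD 3.

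Gstm3 (ENSMUSG00000004038, 107963696 to 107969283, minus strand) had 89.2, 114 and 86.6 CPM in cre MCD, against 11.4, 10.8 and 9.54 CPM in cre control. On MCD the flox livers had 125, 37.2 and 57.2 CPM, against 26.2, 17.8 and 13.0 CPM in flox control. The cre groups were tight and far apart, and the flox MCD libraries spread widely but stayed above every control library. It rose in cre livers (log2 fold change 3.19, SE 0.39, adjusted p = 0.00057) and in flox livers (1.94, SE 0.37, adjusted p = 0.0081). Leaving out flox MCD 1 brought the flox value to 1.32, still called. Of the 50-base words 28.8% in Gstm3, 23.2% in Gstm1 and 9.36% in Gstm2 occur in other genes. Summed before the fit with Gstm6, a further mu gene, these 3 rose together in cre livers (1.01, adjusted p = 0.048) and stood at 0.38 in flox livers (adjusted p = 0.54), a sum to which Gstm1 gave the most counts.

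The pi class gene Gstp1 (ENSMUSG00000060803, chromosome 19, 4035407 to 4037985, minus strand) encodes a transferase that conjugates small electrophiles and is also known as an inhibitor of the stress kinase JNK. It had 269, 294 and 533 CPM in cre MCD, against 100.2, 85.4 and 81.4 CPM in cre control. In flox livers the MCD libraries had 383, 311 and 323 CPM, against 85.5, 109 and 121 CPM in flox control. Each MCD library held more than 2 times the level of any control library. It rose in cre livers (log2 fold change 2.04, SE 0.26, adjusted p = 0.00075) and in flox livers (1.69, SE 0.26, adjusted p = 0.0022), and both calls held without any 1 library. In those fits the cre value ran from 1.66 to 2.23 and the flox value from 1.55 to 1.81.

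Gstp1 shares 62.3% of its 50-base words with Gstp2, its neighbour, and 45.6% with the processed pseudogene Gstp-ps on chromosome 1. Gstp-ps was listed at 183, 180 and 232 CPM in cre MCD, against 79.2, 57.4 and 53.6 CPM in cre control. Its flox MCD levels were 252, 170 and 172 CPM, against 67.1, 66.8 and 42.0 CPM in flox control, and its log2 fold change was 1.64 in cre livers (adjusted p = 0.0021) and 1.75 in flox livers (adjusted p = 0.0014). How many of its counts came from Gstp1 transcripts was not tested. With Gstp1, Gstp2, Gstp3 and Gstp-ps summed (chosen once the data had been examined), the values were 1.85 in cre livers and 1.64 in flox livers, both called.

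Neither theta gene was called for the diet in edgeR with all 12 libraries. Gstt1 (ENSMUSG00000001663, chromosome 10, 75783813 to 75798584, minus strand), known for dehalogenating small halogenated compounds, had 244, 172 and 223 CPM in cre MCD, against 258, 283 and 235 CPM in cre control. Flox MCD libraries had 166, 119 and 182 CPM, against 167, 279 and 322 CPM in flox control. The groups overlapped in both genotypes. Neither value passed, at -0.28 in cre livers (SE 0.25, adjusted p = 0.54) and -0.72 in flox livers (SE 0.25, adjusted p = 0.13). The flox value passed without flox control 1 (-0.95, adjusted p = 0.030) and was -0.51 without flox control 3 (adjusted p = 0.26).

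Gstt2 (ENSMUSG00000033318, chromosome 10, 75831114 to 75837424, minus strand), which acts on sulfate esters and organic hydroperoxides, had 112, 90.6 and 111 CPM in cre MCD, against 78.8, 80.0 and 65.7 CPM in cre control. The flox MCD livers had 93.7, 122 and 100.5 CPM, against 73.1, 97.6 and 82.7 CPM in flox control, and here the groups overlapped. The log2 fold change was 0.48 in cre livers (SE 0.19, adjusted p = 0.13) and 0.32 in flox livers (SE 0.19, adjusted p = 0.40). In the 3 fits of log2 FPKM the flox value was 1.01 to 1.02 and passed (adjusted p = 0.031 to 0.043). For Gstt2 no transcript was dominant in every group. Its ENSMUST00000038257 form made up 60.7% of the gene's FPKM in cre MCD and 69.1% in cre control, against 25.9% in flox MCD and 43.4% in flox control. The shorter ENSMUST00000218500 form made up 1.07% in cre MCD and 3.01% in cre control, against 31.8% in flox MCD and 17.8% in flox control. By library it ran from 0 to 2.85 FPKM in cre control and from 0 to 25.0 FPKM in flox control, which overlap. On MCD it ran from 0.62 to 0.97 FPKM in cre and from 9.29 to 44.5 FPKM in flox livers. Levels of the ENSMUST00000038257 form overlapped between the genotypes on both diets. These shares and levels are the authors' StringTie estimates and were not tested. Both forms were picked from the transcripts of this gene. How many of all transcripts part the genotypes in this way was not counted. For the other genes 1 transcript carried 88.0% or more of the FPKM in every group, except Gsta1 in the control livers, where it sat near 0.

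**Figure D2:**
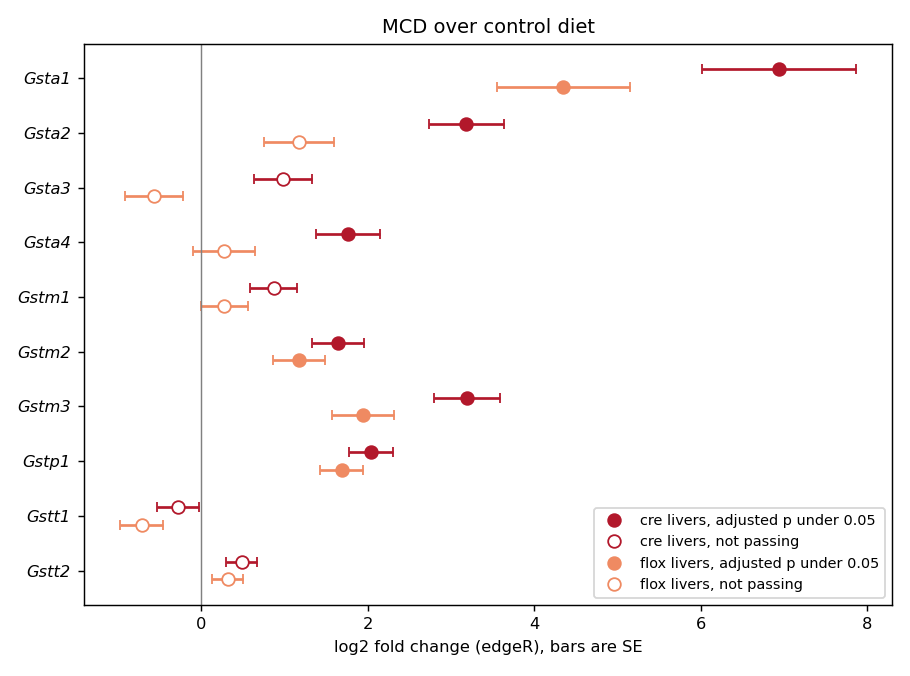
Log2 fold change of each gene for MCD over control diet (horizontal axis) in cre and in flox livers, with SE bars and filled points for an adjusted p under 0.05. Gsta1 lies farthest right in both genotypes (6.94 in cre and 4.35 in flox), and Gstt1 lies left of 0 in both.

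Over both genotypes, 5 of the 10 genes (Gsta1, Gsta2, Gstm2, Gstm3 and Gstp1) had all 6 MCD libraries above all 6 control libraries, where 3.39% of all genes did, and 0 lay the other way (2.96% of all genes). Within cre livers the 3 MCD libraries lay above the 3 control libraries for 9 genes and below for 0 (16.4% and 14.7% of all genes), and within flox livers above for 5 and below for 0 (13.8% and 10.3%). Called higher in both genotypes were Gsta1, Gstm2, Gstm3 and Gstp1, against 1.18% of all genes. The comparisons use separate control groups.

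Per unit of transcript length the ranking of the genes changed with the diet. Gstm1 was the most abundant in all 4 groups, at 569 ± 128 FPKM in cre MCD, 517 ± 251 FPKM in flox MCD, 244 ± 31.6 FPKM in cre control and 294 ± 62.5 FPKM in flox control (SD, n = 3 each). Gstp1 ranked 2 on MCD, at 409 ± 192 FPKM in cre MCD and 420 ± 57.2 FPKM in flox MCD, and 4 on the control diet, at 79.1 ± 13.1 FPKM in cre control and 92.8 ± 32.7 FPKM in flox control. Gstm1 and Gstp1 overlapped between libraries in both MCD groups, and in cre MCD Gstp1 (270 to 627 FPKM) also overlapped Gsta3 (182 to 538 FPKM), which ranked 3. Gsta1 was last on the control diet, at 0.51 ± 0.71 FPKM in cre control and 1.40 ± 0.20 FPKM in flox control. In cre MCD Gsta2, Gsta1, Gstt2, Gstm3, Gstm2 and Gsta4 followed one another with overlapping ranges, and in flox MCD so did Gstt1, Gstt2, Gsta2, Gstm2, Gstm3, Gsta1 and Gsta4. In flox control Gstm1, Gsta3, Gstt1, Gstp1 and Gstt2 overlapped from each to the next, while in cre control Gstm1, Gstt1, Gsta3, Gstp1, Gstt2 and Gstm2 were separated in that order.

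The 10 genes together summed to 1897 ± 683 FPKM in cre MCD and 707 ± 52.9 FPKM in cre control (SD, n = 3). In flox livers the sum was 1658 ± 404 FPKM on MCD and 917 ± 351 FPKM on the control diet. The log2 ratio of means was 1.42 in cre and 0.85 in flox livers, though on the CPM scale it was 1.002 in cre and 0.24 in flox livers. With the library labelled cre MCD 3 left out the cre ratio was 1.09 in FPKM and 0.75 in CPM. With flox control 3 left out the flox ratio was 1.17 in FPKM and 0.42 in CPM. The flox ratio in CPM was 0.056 when flox MCD 1 was left out. These ratios with a library left out were added with the data already seen. On the FPKM scale the median over the genes kept by the filter was above 0 on MCD, at 0.26 in cre and 0.41 in flox livers (log2, at a pseudocount of 1). Without a filter these medians were 0.016 and 0.070. Within the sum Gstp1 took 21.0% ± 2.23 in cre MCD and 11.1% ± 0.995 in cre control, and 25.8% ± 3.27 in flox MCD and 10.2% ± 0.753 in flox control. The share of Gstt1 was 10.3% ± 2.94 in cre MCD and 25.0% ± 1.38 in cre control, and 9.22% ± 1.59 in flox MCD and 19.1% ± 3.56 in flox control. For Gstp1 and for Gstt1 no MCD library overlapped a control library, and the same held for the shares of Gsta1, Gsta2 and Gstm3. Shares do not depend on library scaling but do depend on each other, and they were not tested.

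**Figure D3:**
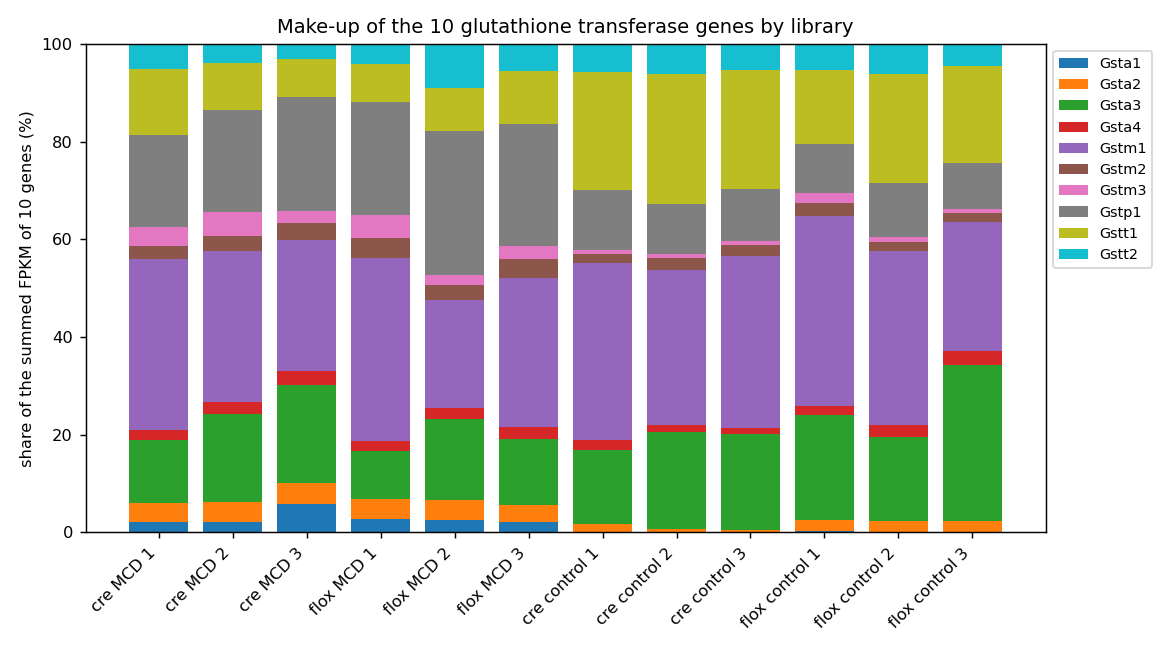
Share of each gene in the summed FPKM of the 10 genes (vertical axis, percent) for every library. Gstp1 averages 21.0% in cre MCD and 25.8% in flox MCD, against 11.1% in cre control and 10.2% in flox control, and Gstt1 is the wider band in control livers.

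The cre and flox genotypes were compared on each diet. On the MCD diet 0 of the 10 genes passed in edgeR (lowest adjusted p = 0.58), as did 0.0121% of all genes. At an unadjusted p under 0.05 there was 1 of the 10 genes (Gsta3) and 1376 of all genes. The groups did not overlap for Gsta3, higher in cre, against 8.13% of all genes, and for 0 of the 10 genes lower in cre, against 9.42%. The log2 fold changes ran from -0.01 to 0.98, 9 of 10 above 0, with a median of 0.41. That median fell to 0.07, with 6 of 10 above 0, without the library labelled cre MCD 3, was 0.20 without flox MCD 2 and 0.62 without flox MCD 1. On the control diet 0 of 10 passed (lowest adjusted p = 0.55), as did 0.0424% of all genes (0.0182% higher and 0.0242% lower in cre). There 4 of the 10 genes and 1190 of all genes had an unadjusted p under 0.05.

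On the control diet the values leaned the other way. They ran from -1.61 to 0.01, 9 of 10 below 0, with a median of -0.58, and -0.30 without flox control 3. Gsta1, Gsta2, Gsta3, Gstm1 and Gstm3 had all 3 cre control libraries below all 3 flox control libraries, as did 5.01% of all genes, and 0 lay above (5.76% of all genes). Gsta2 had the smallest p of the 10, with the cre control libraries at 14.7, 6.36 and 3.23 CPM and the flox control libraries at 20.2, 22.7 and 30.4 CPM (log2 fold change -1.59, SE 0.43, adjusted p = 0.55). DESeq2 gave 0 calls among the 10 genes in either genotype comparison, with a lowest adjusted p of 0.053 on the control diet and 0.39 on MCD. Each genotype comparison shares libraries with the diet comparisons, so a low cre control group also raises the diet value in cre livers.

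The diet effect itself was set against genotype by the interaction, the diet effect in cre livers minus that in flox livers. All 10 values were above 0, with a median of 0.92, but 0 of 10 passed (lowest adjusted p = 0.44, for Gsta2), as did 0.00605% of all genes. At an unadjusted p under 0.05 there were 5 of the 10 genes and 1483 of all genes, and DESeq2 made 0 calls among the 10 (lowest adjusted p = 0.077). The Gsta2 value was 2.01 (SE 0.59) and that of Gsta1 2.59 (SE 1.07), while Gstp1 stood at 0.35 (SE 0.36). With 1 library left out Gsta2 ran from 1.66 to 2.79 and Gsta1 from 1.48, without the library labelled cre MCD 3, to 4.53, without cre control 1. Other lists leaned both ways. Above 0 were 13 of 17 other transferases (median 0.68), 17 of 21 genes of the CAR, PXR and AhR list (median 0.40) and 9 of 10 hepatocyte markers (median 0.49). The NRF2 list had 16 of 26 above 0 (median 0.04). Only 1 of 8 markers of recruited macrophages (median -1.48) and 1 of 8 of stellate cells (median -0.44) lay above 0. For the 10 genes, leaving out flox control 3 together with the library labelled cre MCD 3 gave a median of 0.54, with 8 of 10 above 0. As 0 of 10 interactions passed, the larger number of calls in cre than in flox livers is not shown to be a difference between the genotypes.

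**Figure D4:**
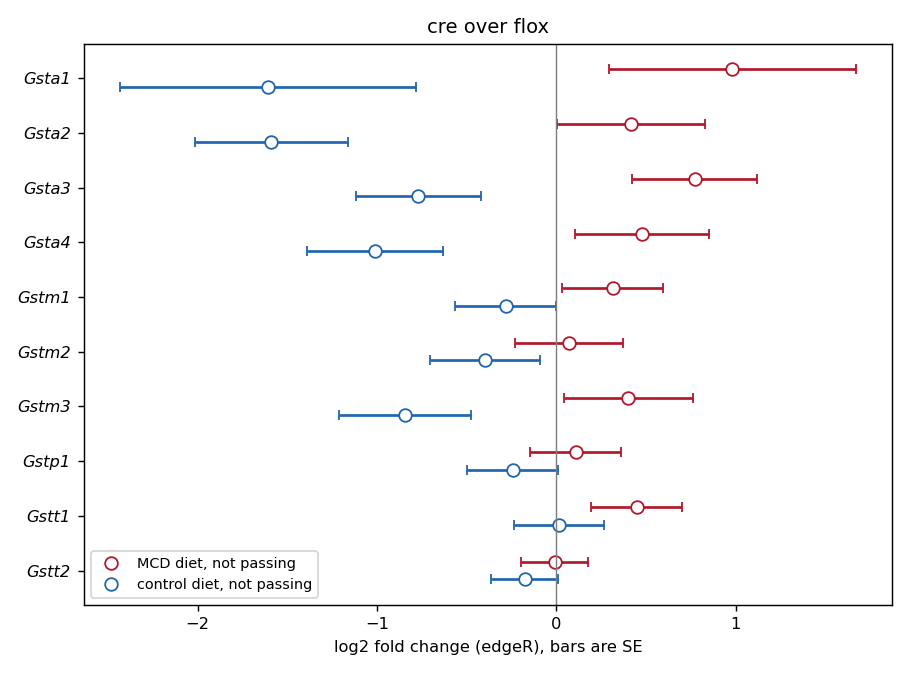
Log2 fold change of each gene for cre over flox livers (horizontal axis) on the MCD and on the control diet, with SE bars. Open points did not pass, which is all 20, and 9 of 10 lie right of 0 on MCD and 9 of 10 left of 0 on the control diet.

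Summed marker levels of some other liver cell types were higher on MCD, and their part in the values above was not tested. Markers of recruited macrophages summed to 98.6 to 199 CPM in cre MCD and 42.4 to 83.4 CPM in cre control, and to 119 to 346 CPM in flox MCD and 51.1 to 78.3 CPM in flox control. Of these 8 markers 2 rose in cre and 7 in flox livers. Stellate cell markers (8 in the table) summed to 222 to 335 CPM in cre MCD and 158 to 177 CPM in cre control, and to 344 to 415 CPM in flox MCD and 156 to 203 CPM in flox control, and 1 of the 8 (Dcn) rose in cre and 2 (Dcn and Col1a1) in flox livers. The 6 cholangiocyte markers, of cells that are known to express Gstp1, summed to 78.3 to 129 CPM in cre MCD and 28.3 to 70.2 CPM in cre control, and to 66.0 to 137 CPM in flox MCD and 42.1 to 60.5 CPM in flox control. Of these 6 markers 1 (Epcam) rose in cre and 0 in flox livers, and Spp1 stands in the macrophage list as well. No marker in these lists was at 0 in all 12 libraries. Of 10 hepatocyte markers 0 passed in cre livers, and Hnf4a and Tat fell in flox livers.

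Of the other transferases 17 were tested. Of these, 4 rose and 0 fell in cre livers and 1 rose and 1 fell in flox livers, with medians of 0.58 and -0.10. In cre livers Mgst3, a microsomal glutathione transferase, rose by 1.52 (log2; adjusted p = 0.0017), and Gstm5 (1.46, adjusted p = 0.011), Gstm4 (1.09, adjusted p = 0.025) and Gstp2 (1.46, adjusted p = 0.037) rose as well. In flox livers Gstp2 rose (1.60, adjusted p = 0.025), and Gstt3, of the theta class, fell by 1.49 on the log2 scale (adjusted p = 0.0078).

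Of 16 genes of synthesis and recycling 4 rose and 0 fell in cre livers, and 4 rose and 1 fell in flox livers. Glutathione synthetase, Gss, had 142, 156 and 166 CPM in cre MCD against 55.6, 58.2 and 68.3 CPM in cre control (log2 fold change 1.35, adjusted p = 0.0045), and rose in flox livers too (0.95, adjusted p = 0.028). Gpx4, the lipid hydroperoxide-reducing peroxidase, rose by 1.67 in cre livers (adjusted p = 0.0054) and by 1.29 in flox livers (adjusted p = 0.020). Pgd, of the NADPH-producing pentose phosphate pathway, rose in cre livers (1.21, adjusted p = 0.0081), and the plasma peroxidase Gpx3 rose in flox livers (1.92, adjusted p = 0.0018). Cbs, which makes cystathionine on the way to cysteine, fell in flox livers (-0.86, adjusted p = 0.019).

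Slc7a11, the cystine transporter, was called higher in both genotypes at very low levels. It had 0.093, 0.60 and 0.16 CPM in cre MCD and 1.001, 0.858 and 2.31 CPM in flox MCD, and 0 counts in all 6 control libraries. Against a floor of 3 counts over the control group it was at least 11.3-fold higher in cre livers and at least 60.1-fold higher in flox livers.

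Genes that break down glutathione or handle its conjugates gave the same 3 calls in each genotype, out of 23 tested. Nat8, which acetylates cysteine conjugates to mercapturates, had 10.4, 13.0 and 11.5 CPM in cre MCD against 0.88, 0.15 and 0.48 CPM in cre control, and 10.9, 6.95 and 7.31 CPM in flox MCD against 0.33, 0.71 and 0.75 CPM in flox control. Its log2 fold change was 4.49 in cre livers (adjusted p = 0.00023) and 3.79 in flox livers (adjusted p = 0.00039). The efflux pump Abcc4 rose (1.90 in cre, adjusted p = 0.0019; 1.22 in flox, adjusted p = 0.020). Acy1, an aminoacylase that removes such acetyl groups, fell (-0.84 in cre, adjusted p = 0.023, and -1.15 in flox, adjusted p = 0.0039).

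Of 26 NRF2 regulators and targets other than transferases, 10 rose and 0 fell in cre livers and 6 rose and 0 fell in flox livers, with medians of 0.80 and 0.57. Sulfiredoxin, Srxn1, which repairs peroxiredoxins, rose in cre livers (1.37, adjusted p = 0.0028) and in flox livers (1.51, adjusted p = 0.0015), and transketolase, Tkt, by 1.26 (adjusted p = 0.0019) and 0.71 (adjusted p = 0.041). Akr1b7, an aldose reductase-like enzyme, rose in cre livers (3.17, adjusted p = 0.0028). Heme oxygenase, Hmox1 (2.06, adjusted p = 0.0038), and the oxidative stress-induced Osgin1 (1.80, adjusted p = 0.016) rose in flox livers. Hmox1 was called higher in cre livers as well. Between genotypes, Maff, a small MAF partner of NRF2, was lower in cre control than in flox control livers (-2.47, adjusted p = 0.040), the only call of a gene in these lists between the genotypes.

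The xenobiotic receptors and their targets had more genes lower than higher on MCD. Of 21 tested, 2 rose and 4 fell in cre livers and 0 rose and 4 fell in flox livers, with medians of -0.19 and -0.49. Ces2a, a carboxylesterase, fell by 1.56 on the log2 scale in cre livers (adjusted p = 0.00041) and by 2.26 in flox livers (adjusted p = 2.4e-05). The receptor CAR, Nr1i3, fell in cre livers (-1.25, adjusted p = 0.0028), and PXR, Nr1i2, fell in cre (-0.66, adjusted p = 0.029) and in flox livers (-0.70, adjusted p = 0.020). Cyp2b13 fell in both (-1.54 in cre, adjusted p = 0.027, and -2.34 in flox, adjusted p = 0.0028). Cyp2c55 (2.41, adjusted p = 0.0077) and Cyp3a11 (1.02, adjusted p = 0.036) rose in cre livers, and Cyp1a2 fell in flox livers (-1.02, adjusted p = 0.037).

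**Figure D5:**
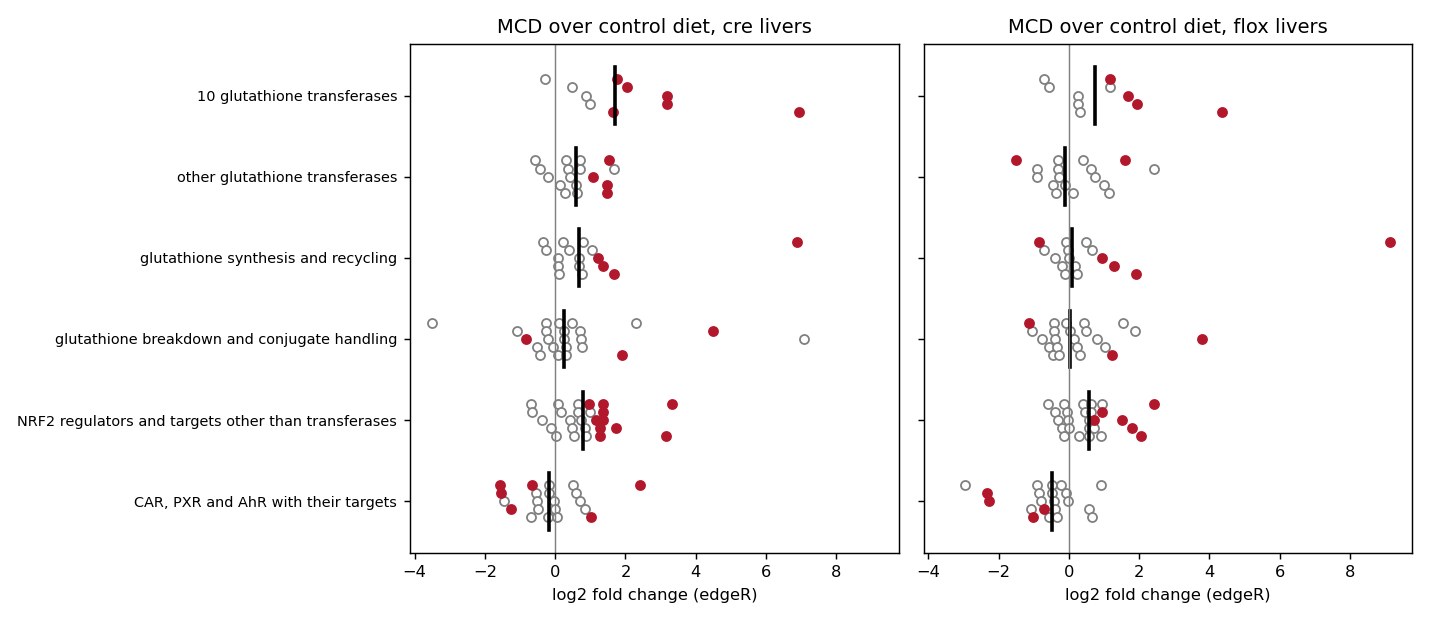
Log2 fold change for MCD over control diet of every tested gene (points) in 6 lists, in cre livers and in flox livers, with called genes filled and the median of each list as a black bar. The 10 glutathione transferases have medians of 1.70 and 0.75, and the median of the CAR, PXR and AhR list lies below 0 in both panels.

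Genes with a profile over the 12 libraries closest to 2 of the members were searched among 8382 genes, as the mean absolute difference of centred log2(CPM + 1). The closest to Gstp1 were Scamp5 (0.22), Gpx4 (0.23), Ptp4a3 (0.24), its own pseudogene Gstp-ps (0.25) and Eno1 (0.25). Of these Gpx4 stands in the glutathione list above. The closest to Gsta1 were Cd63 (0.62), its similar copy Gm3776 (0.63), Uap1l1 (0.69), Cyp4a31 (0.72) and Ly6d (0.76). These distances are descriptions over 12 libraries that share the diet contrast.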

How the data were processed

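Poly(A) RNA of mouse liver in 12 libraries was studied from the deposited tables of genes and transcripts, and no reads were mapped again. The submitters' processing notes name cutadapt, FastQC, HISAT2, StringTie and edgeR, without versions, and the mm10 build. Counts deposited per gene and per transcript are estimated counts from the authors. The deposited expression tables hold FPKM values, which the authors normalised to length and library size, and whose headers name no unit. Deposited tables of correlations and reduced expression tables were not used.

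Groups were compared by edgeR 4.0.16 under R 4.3.3 (filterByExpr by group, TMM scaling, quasi-likelihood F tests, 2-sided) with the 12 libraries in 1 model of 4 group means. The method was tested on simulated data. A call is an adjusted p under 0.05 (Benjamini-Hochberg, 16523 genes). Each SE was taken as the size of the log2 value over the root of F. CPM values are TMM-normalised estimated counts. Summed FPKM and shares were described without a test.

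The alternatives were DESeq2 1.42.0, limma 3.58.1 (voom, and log2(FPKM + 1) or log2(FPKM + 0.1) with and without a filter), other scalings and filters, only the 6 libraries compared, the replicate number as a block, similar copies summed, and 1 library or both doubtful libraries left out.

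The 10 genes, the lists and the rules were chosen with earlier results of these data known. All 10 genes are named, with up to 3 called genes of each list by smallest adjusted p per comparison, and the 5 genes closest in profile to the 2 members with the smallest adjusted p for the diet in flox livers. Outside that rule, Gstp2, Slc7a11, Tkt, Cyp2b13, Nr1i2 and Cyp3a11 (in cre livers or flox livers), Gss and Gpx4 in flox livers, Cyp1a2, Gm3776 and Gstp-ps were named after their values were seen. The same holds for Hmox1 in cre livers and for the transcript forms of Gstt2. The promoter table is from RefSeq (GRCm38.p6). Gene coordinates are as deposited, and 99.4% of the identifiers found in GENCODE vM21 had the same start and end there. Gsta13 and Gsta5 were not matched by symbol.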

Additional observations from a re-analysis of the deposited data

Results flagged for a closer look

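Gsta3 lay on opposite sides between the genotypes on the 2 diets, with neither difference past the threshold in edgeR. On MCD all 3 cre libraries lay above all 3 flox libraries (324, 455 and 788 CPM against 290, 316 and 312 CPM), and on the control diet all 3 cre libraries lay below (226, 299 and 270 CPM against 330, 306 and 719 CPM). The interaction was 1.54 on the log2 scale (SE 0.49, unadjusted p = 0.0075) and did not pass over all genes in edgeR (adjusted p = 0.47, and 0.26 to 0.76 without 1 library at a time). The log2 fold change of cre over flox was 0.77 on MCD (adjusted p = 0.58) and -0.77 on the control diet (adjusted p = 0.69). On MCD it was 0.35 when the library labelled cre MCD 3 was left out, and on the control diet it was -0.26 when flox control 3 was left out. The interaction was 1.12 on leaving out the first of these libraries, 1.03 on leaving out the other and 0.61 on leaving out both.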

How the results depend on the processing

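Estimated counts, 3 libraries a group and the shared sequence of Gsta1, Gsta2, Gstp1 and the mu genes limit these values. The number of the 10 genes called for the diet was 5 to 8 in cre livers (26 alternatives) and 1 to 6 in flox livers. With 1 library left out it was 5 to 7 and 3 to 4. With similar copies summed it was 1 in flox livers, where Gsta1 and Gsta2 share 1 value and the mu genes another. In the genotype and interaction comparisons it was 0 in every alternative run. Over all genes DESeq2 made 2255 calls in cre and 1668 in flox livers, against 1118 and 871 in edgeR. DESeq2 also called 170, 50 and 104 genes on MCD, on the control diet and for the interaction, against 2, 7 and 1. The unfiltered FPKM fit called 389 in cre livers and 1821 in flox livers, and the filtered one 1263 and 2103. With all measured transferase rows in place of the 10 genes, the log2 ratio of summed FPKM in cre livers was 0.60 (1.42 for the 10).

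The replicate number was tried as a block. The correlation of deviations was -0.043 to 0.52 over the 18 same-numbered pairs (median 0.079) and above 0.1 in 8, against 3 of 36 pairs with different numbers (median -0.056). For 8 of 12 libraries the best correlated library of another group had the same number. As not every same-numbered pair was above 0.1, and the labels name no shared source, the numbers were not taken as pairs, although these values lean toward a shared number. The replicate block left 4 calls among the 10 in flox livers and gave 7 in cre livers, where Gstm1 was added (adjusted p = 0.045), and over all genes it gave 1046 and 2005 calls.

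The directions that turned are of values that had not passed in edgeR, and the cause was not tested. In the FPKM fits (pseudocount 1, 0.1, and unfiltered) Gsta3 for the diet in flox livers was 0.094, 0.096 and 0.094, and Gstt1 for the diet in cre livers 0.050, 0.050 and 0.050. In the same fits Gstm2 on MCD was -0.11, -0.11 and -0.11, Gstp1 on MCD -0.13, -0.13 and -0.13, and the Gstt2 interaction -0.19, -0.19 and -0.19. Gstt2 on MCD was 0.00051 with DESeq2's size factors and 0.0031 with the replicate block. Without both doubtful libraries Gsta1, Gstm2 and Gstp1 on MCD were -0.12, -0.35 and -0.27, and the interactions of Gstm2 and Gstp1 -0.037 and -0.14. With 1 library left out, Gstm1 for the diet in flox livers ran from -0.11 to 0.56. On MCD, Gsta1 ran from -0.12 to 1.34, Gstm2 from -0.35 to 0.35, Gstp1 from -0.27 to 0.29 and Gstt2 from -0.089 to 0.11. On the control diet Gstt1 ran from -0.23 to 0.22, and the Gstp1 interaction from -0.027 to 0.56.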
